A study of Mus musculus with 26 samples.

Results

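An induced pluripotent stem cell line of fibroblast origin (Fib-iPSC) was compared with a culture of fibroblasts (Fib), each a single cell line measured on 2 technical arrays, a and b. The comparison therefore covered 4 of the 26 arrays of the series and set 1 line against 1 line. Its members were chosen by label, with earlier results of these data known. Both lines carry the OG2 strain background, a mouse strain known for a green fluorescent protein transgene under control of Pou5f1 regulatory sequence, and so do all other lines of the series. The labels give neither the age and tissue of the fibroblasts, nor the factors and vectors used for reprogramming, nor whether the Fib-iPSC line was derived from this Fib culture. The remaining arrays hold 2 lines of germline stem cells (GSC), 4 iPSC lines made from GSC, 4 lines of germline-derived pluripotent stem cells (gPSC) and 1 line of embryonic stem cells (ESC), with 2 arrays per line. The design text counts 12 lines and leaves out the fibroblasts, while the labels give 13. The 9 pluripotent lines among them served as a scale for Fib-iPSC, and the title of the series raises the question whether factor-driven reprogramming leaves a memory of the source cell.

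Fibroblasts are spindle-shaped mesenchymal cells that secrete and remodel collagen-rich matrix and pull on it through actin stress fibres. During reprogramming, forced expression of transcription factors, in the classical protocol Pou5f1, Sox2, Klf4 and Myc, silences that programme, drives a mesenchymal-to-epithelial transition and starts the endogenous pluripotency network. Mouse pluripotent cells grow as compact epithelial colonies, cycle fast with a short G1 phase and are commonly kept with leukaemia inhibitory factor (LIF), often on a layer of feeder fibroblasts. Levels below are background-corrected, quantile-normalized intensities on a log2 scale, taken from the probe of each gene with the highest mean, and levels of different genes cannot be set against each other. A probe counted as detected at a detection p-value under 0.05. A gene was called changed when both Fib-iPSC arrays lay at least 2-fold above, or at least 2-fold below, both Fib arrays, so that the lines cannot overlap in a changed gene. With 1 line on each side no test was possible, and the arrays show only the technical spread. In bulk RNA, fewer cells of a type and less RNA per cell cannot be told apart.

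The 2 arrays of a line differed little. Between the arrays the median absolute difference per gene was 0.11 for Fib-iPSC and 0.12 for Fib on the log2 scale, and 5 genes in either line differed 2-fold or more. The Fib arrays stood apart in brightness before normalization, with maxima of 50704 and 51274 intensity units, against 14806 to 19196 on the other 24 arrays. This scale difference lies wholly between the compared lines, so it and the cell type cannot be told apart. Of the labelled cell types, 8 of the 11 measured fibroblast markers were lower and 1, Dcn, was higher in Fib-iPSC, while 11 of the 12 pluripotent cell markers were higher. All 11 fibroblast markers were detected on both Fib arrays, and all 12 pluripotent markers, by any probe of the gene, on both Fib-iPSC arrays. For Tdgf1 that probe is not the one used for its level. On the Fib arrays only Zfp42 of the 12 pluripotent markers was detected.

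Before the results, 2 features of the Fib-iPSC arrays have to be stated. They lay as near to those of line gPSC 4 (root mean square difference over genes 0.191 to 0.218 log2) as to each other (0.2), while the next nearest line was at 0.323 or more. Arrays of the same letter were nearer to those of gPSC 4 (0.195 for a and 0.191 for b) than arrays of unlike letters (0.211 and 0.218). By the same 2-fold rule, Fib-iPSC differed from gPSC 4 in 9 genes (0.0844% of those measured), from ESC in 378 (3.55%) and from iPSC 3, the most distant of the 9 lines, in 1160 (10.9%). The second feature is the Y-linked gene Eif2s3y, which encodes a translation initiation factor subunit. It read 4.29 and 4.32 on the Fib-iPSC arrays, where it was not detected, against 8.89 and 9.03 on the Fib arrays. The other 12 lines all detected it, at line means of 7.02 to 9.31. Erdr1 was likewise undetected in Fib-iPSC, at 4.38 and 4.47, against 6.14 and 6.31 in Fib and at least 6.44 in the 9 pluripotent lines. It was also undetected in both GSC lines, at 4.35 and 4.44. Eif2s3y and Erdr1, chosen after their values were seen, were also the only genes on which Fib-iPSC lay at least 2-fold below all 18 arrays of those lines, and none lay at least 2-fold above. The Y-linked genes Uty and Kdm5d did not separate Fib-iPSC from the 9 pluripotent lines. Uty was detected on both of its arrays at a mean of 5.12, against 5.61 in Fib and within the 5.09 to 5.35 of those lines, and Kdm5d was undetected in Fib-iPSC, at 4.33 against 6.28 in Fib, and also in ESC, iPSC 4, gPSC 1, gPSC 3 and gPSC 4. Xist, the RNA of the inactive X chromosome, read 4.78 in Fib-iPSC, detected on both arrays, and 4.38 in Fib, detected on neither. It was also detected on both arrays of gPSC 1 (5.98), gPSC 4 (4.92), ESC (4.78), GSC 2 (4.75) and iPSC 4 (4.72). Whether the arrays labelled Fib-iPSC hold RNA of another line, or of a line with another origin than its label says, was not tested, and every value given for Fib-iPSC is that of the arrays so labelled.

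Of 10660 genes measured, 1403 (13.2%) were higher and 1334 (12.5%) lower in Fib-iPSC than in Fib, with a median difference of 0.06 log2 over all genes. Scaling the arrays to a common median of the probes detected on all arrays, in place of quantiles, raised that median to 0.46 and the share of changed genes that were higher to 64.2%, against 51.3%. All 2737 changed genes were detected on both arrays of the higher line. The lower line detected no probe of the gene on either array for 408 of the higher and 205 of the lower genes, and their folds are given as lower bounds against the detection floor. The nearest arrays of the lines were at least 16-fold apart for 74 higher and 45 lower genes. Close to the threshold, 317 genes had a gap between nearest arrays of 1.0 to 1.1 log2 and 356 a gap of 0.9 to 1.0.

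**Figure D1:**
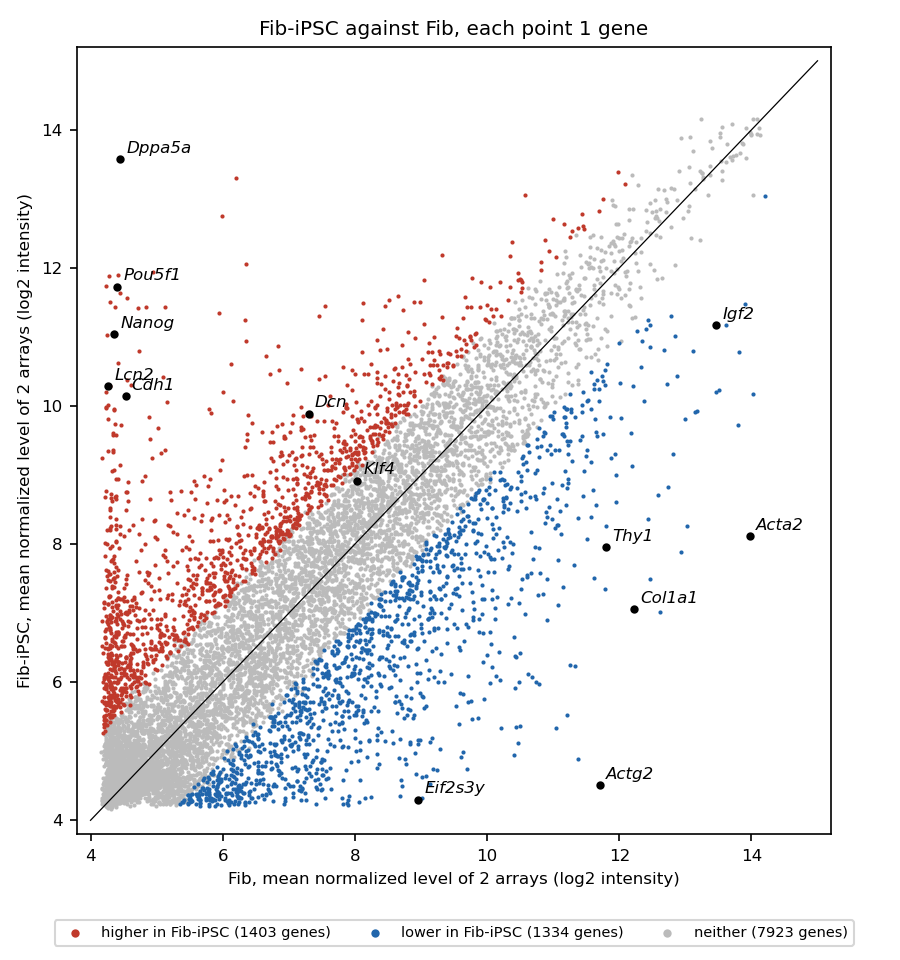
Mean normalized level (log2 intensity, 2 arrays) of 10660 genes in Fib-iPSC (vertical axis) and Fib (horizontal axis), with the 1403 higher genes in red, the 1334 lower genes in blue and the remaining 7923 in grey. The column of red points at the left edge holds genes near the detection floor in Fib, among them Dppa5a, Pou5f1 and Nanog, while Actg2 and Eif2s3y lie near the floor in Fib-iPSC.

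The widest gaps on the higher side belonged to Dppa5a, Trh, Dppa4, Sall4, L1td1, Pou5f1, Chchd10, Esrrb, Dnmt3l and Bex4. Dppa5a, a germ cell and embryonic stem cell RNA-binding protein, read 13.61 and 13.54 in Fib-iPSC, against 4.56 and 4.33 in Fib. The Fib values were below detection, so the rise was at least 440-fold. Chchd10, a mitochondrial protein gene, read 13.24 and 13.36 against 6.2 and 6.19, and Bex4 11.73 and 11.52 against 4.66 and 4.25. Trh, the thyrotropin-releasing hormone precursor, read 11.9 and 11.88 against 4.32 and 4.23 (at least 137-fold), but was spread from 5.33 to 12.19 over the 9 other pluripotent lines. On the lower side the widest gaps were those of Actg2, Csrp1, Acta2, Ptn, Ccn4, Fbln2, Cavin2, Ankrd1, Anxa3 and Col1a1. Ptn, a secreted heparin-binding growth factor, read 5.64 and 5.42 in Fib-iPSC, against 11.21 and 11.22 in Fib (51.3-fold lower). Ankrd1, an ankyrin-repeat protein of muscle and of mechanically loaded cells, read 5.04 and 4.86 against 10.19 and 10.63 (43.9-fold lower). Cavin2, a coat protein of caveolae, read 5.07 and 5.17 against 10.53 and 10.41 (40.8-fold lower), and Anxa3, an annexin, 7.9 and 7.86 against 12.94 and 12.94 (33.4-fold lower).

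The pluripotency network was the list with the highest share of higher genes. Of its 33 measured members 30 were higher in Fib-iPSC and none was lower, with a median difference of 5.08 log2. Pou5f1 (Oct4), the central POU-domain factor of the network, read 11.64 and 11.81 in Fib-iPSC, against 4.59 and 4.21 in Fib, at least 122-fold higher. Nanog, a homeodomain factor that holds cells in the naive state, read 11.02 and 11.05 against 4.32 and 4.4 (at least 75.6-fold). Sox2, the partner of Pou5f1 on composite binding sites, read 8.28 and 8.13 against 4.5 and 4.65 (at least 10.6-fold). All 3 were undetected on both Fib arrays. Sall4, a zinc-finger factor of the same network, read 11.87 and 11.93 against 4.49 and 4.33 (at least 138-fold), and Esrrb, an orphan nuclear receptor, 11.46 and 11.43 against 4.3 and 4.44. L1td1, an RNA-binding protein, read 11.51 and 11.5 against 4.26 and 4.32 (at least 105-fold), and Dppa4, a chromatin-binding protein, 11.79 and 11.69 against 4.21 and 4.26 (at least 123-fold). Lefty1, an inhibitor of Nodal, read 11.46 and 11.38 in Fib-iPSC, against 4.74 and 4.7 in Fib (at least 98.7-fold). Zfp42 (Rex1), a zinc-finger marker of the naive state, was the marker already detected in Fib. It read 7.74 and 7.91 against 5.02 and 5.25, a rise of 2.69 log2. Its Fib-iPSC mean lay just below the 7.86 to 10.02 of the 9 other pluripotent lines.

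The 3 members that did not pass the rule were Klf4, Prdm14 and Tdgf1. Klf4, a reprogramming factor that fibroblasts express themselves, read 8.89 and 8.95 in Fib-iPSC, against 8.06 and 8.01 in Fib, a difference of 0.89 log2 in which the lines did not overlap. Prdm14, which represses differentiation genes, was detected on 1 Fib-iPSC array and lay near the floor in both lines. The probe used for Tdgf1, a Nodal co-receptor, was undetected on all 4 arrays, whereas a second probe of the gene read 6.52 and 7.13 in Fib-iPSC, against 4.25 and 4.21 in Fib, so the probes disagreed. Myc, the remaining classical factor, was lower: it read 4.56 and 4.5 in Fib-iPSC, where it was not detected, against 6.32 and 6.29 in Fib, and lay between 4.3 and 4.68 in the 9 other pluripotent lines.

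**Figure D2:**
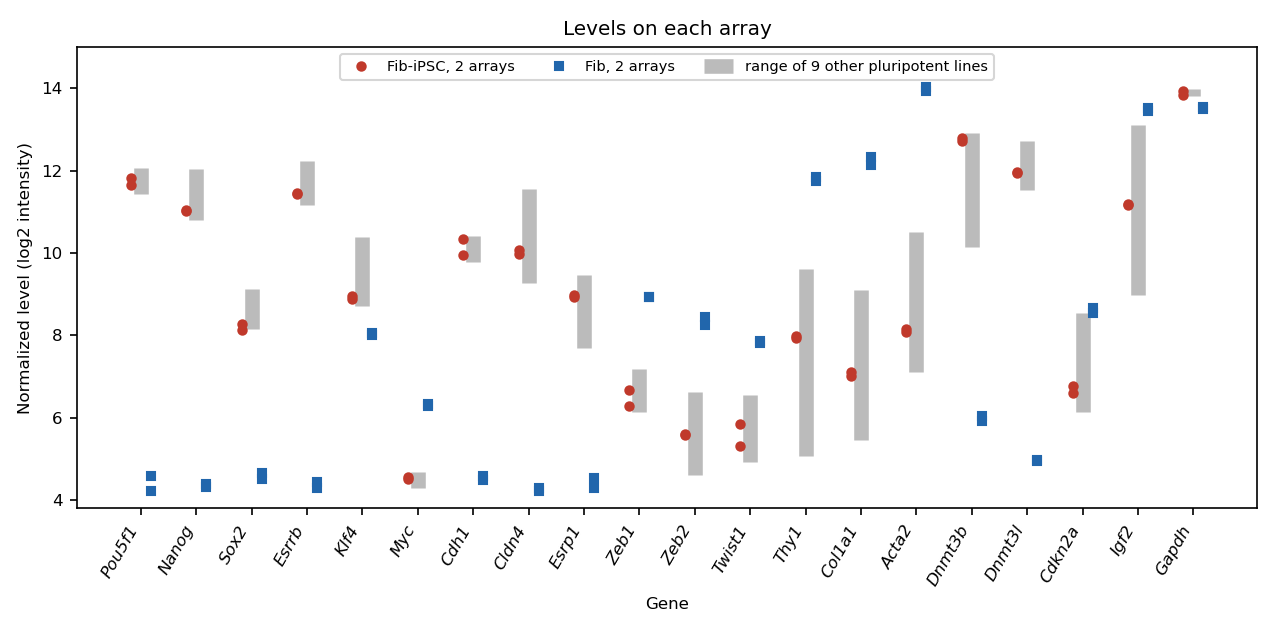
Normalized level (log2 intensity) of 20 genes on the 2 Fib-iPSC arrays (red circles) and the 2 Fib arrays (blue squares), with the range of line means of the 9 other pluripotent lines as a grey bar. The Fib-iPSC arrays lie in or next to the grey bar in all 20 genes, and the Fib arrays of Pou5f1, Nanog, Sox2, Esrrb, Cdh1, Cldn4 and Esrp1 lie near 4 to 5, at the floor.

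Promoter sequences of members that changed are shown for the motif that textbook accounts connect with each list, taken from RefSeq on build GRCm38.p6, from 250 bases before to 50 bases after the annotated gene start. The letters ATGCAAA, the core of the octamer to which POU-domain factors bind, were searched on both strands, and the complete octamer, which is a base longer, was not. The core occurred in 5.24% of 27025 genes with a promoter and in 4.45% of the 8630 measured genes that had one. It occurred in 4.88% of the higher genes and in 4.33% of the lower genes that had one. Of the 18 changed members of the pluripotency network with a promoter in the table, 3 held it (Sox2, Nanog and Zfp42). The promoters of Nanog (chr6:122707239-122707538, plus strand) and Zfp42 (chr8:43306960-43307259, minus strand) are printed with this core, which lies on the opposite strand and so reads as its reverse complement, in capitals.
Nanog: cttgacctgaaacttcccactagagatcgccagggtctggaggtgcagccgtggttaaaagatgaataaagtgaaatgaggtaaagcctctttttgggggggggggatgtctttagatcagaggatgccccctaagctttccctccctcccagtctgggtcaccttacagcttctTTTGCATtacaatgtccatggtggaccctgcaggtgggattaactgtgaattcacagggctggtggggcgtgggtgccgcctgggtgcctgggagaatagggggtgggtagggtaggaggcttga
Zfp42: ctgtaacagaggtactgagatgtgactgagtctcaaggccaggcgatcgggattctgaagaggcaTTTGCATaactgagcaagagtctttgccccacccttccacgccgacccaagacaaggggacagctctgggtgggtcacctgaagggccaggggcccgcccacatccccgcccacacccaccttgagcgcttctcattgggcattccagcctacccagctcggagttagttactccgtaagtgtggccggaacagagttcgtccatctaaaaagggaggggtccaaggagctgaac
Relative to the gene start, the core begins at -75 in Nanog and at -185 in Zfp42. Nanog has 2 starts in the table, and the window with the match is shown. A match is a description of these letters and not evidence of binding, and the share in all higher genes was close to those in all promoters and in measured genes.

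Signalling genes of the LIF pathway went both ways. Among 14 measured members 2 were higher (14.3%, against 13.2% of all genes) and 4 lower (28.6%, against 12.5%), with 8 unchanged. The higher share was thus near that of all genes, and in 2 of 5 other scalings the counts were level. The feedback inhibitor Socs3 read 9.78 and 9.6 in Fib-iPSC, against 8.36 and 8.25 in Fib, and the kinase Pim3 10.71 and 10.83 against 9.42 and 9.4. The kinases Jak1 (4.52-fold) and Jak2 (3.62-fold), which transmit cytokine signals, the oncostatin M receptor Osmr (4.54-fold) and the phosphatase Ptpn11 were lower. The LIF receptor gene Lifr, the shared receptor chain Il6st and Stat3 did not pass the rule, with differences of 0.32, -0.64 and -0.85 log2.

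Fibroblast surface and cytoskeletal genes fell as a group. Of 19 measured members 13 were lower and 1 was higher, with a median difference of -2.76 log2. Thy1, the surface antigen by which fibroblasts are commonly sorted in reprogramming experiments, read 7.98 and 7.93 in Fib-iPSC, against 11.85 and 11.75 in Fib (14.3-fold lower). The Fib-iPSC value remained above detection and inside the span of the 9 other pluripotent lines. Axl, a receptor tyrosine kinase, read 7.58 and 7.42 against 12.48 and 12.47 (31.3-fold lower), and Vim, the mesenchymal intermediate filament, 8.79 and 8.88 against 12.76 and 12.73 (15-fold lower). Tnfrsf11b, the decoy receptor osteoprotegerin, read 4.49 and 4.56, undetected, against 9.26 and 9.03 (at least 22.1-fold lower). S100a4, a calcium-binding protein also called fibroblast-specific protein, was 22.6-fold lower, and Cav1, the main caveolin, 21.8-fold lower. Nt5e (CD73), an enzyme that makes adenosine, moved the other way, at 6.85 and 6.88 against 5.62 and 5.62. Pdgfra, a growth factor receptor of mesenchymal cells, narrowly missed the rule at -1.04 log2.

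Of 20 measured mesenchymal transcription factors 15 were lower and none was higher, with a median difference of -2.19 log2. Zeb1, a repressor of epithelial genes, read 6.68 and 6.28 in Fib-iPSC, against 8.94 and 8.94 in Fib (5.49-fold lower). Its relative Zeb2 read 5.58 and 5.6 against 8.44 and 8.26 (6.77-fold lower). Snai1, a further repressor of this kind, was lower by 2.12 log2. Twist2 read 5.59 and 5.35 against 9.76 and 9.78 (19.7-fold lower), and Twist1 5.85 and 5.32 against 7.81 and 7.87 (4.76-fold lower). Foxc2, a forkhead factor of mesenchyme, read 4.39 and 4.89, detected on 1 of the 2 arrays, against 9.04 and 9.13. Nfix and Prrx1 were 16.5-fold and 8.41-fold lower. Of 5 other scalings, 2 added 1 higher gene, and the count of lower genes ran from 9 to 16.

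Collagen genes followed: 11 of 14 measured chains were lower, none was higher, and the median difference was -3.24 log2. Col1a1, a chain of fibrillar type I collagen, read 7.01 and 7.11 in Fib-iPSC, against 12.33 and 12.13 in Fib (35.9-fold lower), and its partner Col1a2 4.89 and 4.95 against 9.55 and 9.64 (25.5-fold lower). Col5a1, of the collagen that nucleates type I fibrils, was 27-fold lower. Col5a2 was undetected in Fib-iPSC, at least 11.1-fold lower, and Col4a2 of basement membrane 12-fold lower. Col18a1, Col15a1 and Col5a3 were the chains that did not pass the rule, at 0.92, -1.06 and -1.06 log2. Enzymes that process or remodel matrix gave 19 lower and 2 higher of 26. The collagen cross-linking oxidases Lox (8.7 and 8.73 against 12.71 and 12.45, 14.6-fold), Loxl1 (17-fold) and Loxl2 (13-fold) and the metalloproteinase inhibitor Timp3 (16-fold) were all lower.

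Other matrix proteins gave 18 lower and 3 higher of 27 measured. Fbln2, an elastic fibre protein, read 7.15 and 6.9 in Fib-iPSC, against 12.63 and 12.61 in Fib (48.5-fold lower). Ccn4, a matricellular protein, read 5.51 and 5.14 against 11.02 and 11.06 (52.5-fold lower), and Tnc (tenascin C) and Thbs1 (thrombospondin 1) were 32.3-fold and 35-fold lower. The genes that went against these lists were Dcn, Lum, Nid2, Mmp3 and Mmp13. Their shares, 11.1% of the other matrix proteins and 7.69% of the processing and remodelling genes, were below the 13.2% higher over all genes. The small proteoglycan Dcn read 9.87 and 9.91 against 7.35 and 7.24 (6.05-fold higher), and the related Lum 8.69 and 8.81 against 5.37 and 5.05 (11.6-fold higher). The metalloproteinase genes Mmp3 (10.84 and 10.9 against 6.93 and 6.72, 16.5-fold higher) and Mmp13 (4.87-fold higher) rose as well. Dcn, Lum, Mmp3 and Mmp13 varied widely among the pluripotent lines, whereas Nid2, a basement membrane nidogen, stood at 9.49 or more in all 9.

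Genes of actin filaments and contraction had the largest share of lower members of the lists counted, with 19 of 21 measured members lower, none higher and a median difference of -3.27 log2. Acta2 (smooth muscle actin), the usual marker of activated fibroblasts, read 8.15 and 8.09 in Fib-iPSC, against 13.92 and 14.04 in Fib (58.3-fold lower). Actg2, a further smooth muscle actin, read 4.42 and 4.61, undetected, against 11.69 and 11.73 (at least 131-fold lower). Csrp1, a LIM-domain protein of actin bundles, read 4.79 and 4.99 against 11.41 and 11.34 (89.9-fold lower), and Tagln (transgelin) 4.88 and 4.63 against 9.7 and 9.7. Tagln was detected on 1 of the 2 Fib-iPSC arrays. Anxa1, an annexin, was 28.3-fold lower. Only Des (desmin) and Csrp2 did not pass the rule, at -0.58 and 0.57 log2. The CArG box, the binding motif of serum response factor, which controls many contractile genes, was found on either strand of the promoter of Cnn2 and Vcl among the 15 changed members with a promoter in the table. It occurred in 1.81% of all promoters, 1.65% of those of measured genes, 2.82% of those of the lower genes and 0.976% of those of the higher genes. The Cnn2 promoter (chr10:79988350-79988649, plus strand), of a calponin gene that was lower by 2.74 log2, is printed with the box in capitals, which begins at -56 relative to the gene start and matches on both strands.
Cnn2: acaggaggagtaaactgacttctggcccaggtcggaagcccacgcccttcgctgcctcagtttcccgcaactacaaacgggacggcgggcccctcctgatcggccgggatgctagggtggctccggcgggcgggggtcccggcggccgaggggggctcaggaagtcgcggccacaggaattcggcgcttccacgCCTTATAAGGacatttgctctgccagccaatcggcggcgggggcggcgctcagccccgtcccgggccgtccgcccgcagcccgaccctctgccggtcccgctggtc

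Epithelial genes rose. Of 27 measured members of the list of junction genes and epithelial regulators 17 were higher and none was lower, with a median difference of 1.53 log2. The count of higher genes ran from 8 to 23 over 5 other scalings, of which normalization of the 4 arrays alone and the authors' processed values each added 1 lower gene. Cdh1 (E-cadherin), the adhesion molecule of epithelia and of pluripotent colonies, read 9.95 and 10.33 in Fib-iPSC, against 4.58 and 4.48 in Fib, where it was not detected (at least 40.6-fold higher). The tight junction genes Cldn4 (9.97 and 10.07 against 4.23 and 4.29, at least 37.4-fold) and Cldn6 (9.92 and 10 against 4.35 and 4.35, at least 35.9-fold) rose likewise. Esrp1, which directs epithelial splicing, read 8.97 and 8.92 against 4.54 and 4.3 (at least 17.7-fold). Elf3, an epithelial ETS factor, was at least 10.6-fold higher, and Grhl2, a regulator of Cdh1 and claudins, at least 7.83-fold higher. Among the members that did not pass the rule were Krt19 (-1.13 log2), Ocln (0.4) and Cldn7 (0.97).

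The E-box CACCTG, the sequence bound by Zeb and Snail repressors, was searched on both strands of the same windows. It lay in the promoters of 10 of the 11 changed epithelial genes with a promoter in the table, and in those of all 5 unchanged ones, so it did not separate the members that moved from those that did not. The share was 22.6% over all promoters, 21.7% over measured genes, 27.7% over the higher genes and 16.8% over the lower genes. Promoters of the higher and the lower genes had median GC contents of 60% and 62.3%. The promoters of Cldn4 (chr5:134946885-134947184, minus strand) and Cldn6 (chr17:23679115-23679414, plus strand) are printed because each holds 2 such boxes, in capitals.
Cldn4: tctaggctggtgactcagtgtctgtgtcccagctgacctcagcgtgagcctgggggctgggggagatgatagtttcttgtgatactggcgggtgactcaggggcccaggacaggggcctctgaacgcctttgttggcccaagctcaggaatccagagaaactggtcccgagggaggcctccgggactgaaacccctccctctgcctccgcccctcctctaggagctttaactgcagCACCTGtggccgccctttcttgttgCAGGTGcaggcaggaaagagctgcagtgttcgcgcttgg
Cldn6: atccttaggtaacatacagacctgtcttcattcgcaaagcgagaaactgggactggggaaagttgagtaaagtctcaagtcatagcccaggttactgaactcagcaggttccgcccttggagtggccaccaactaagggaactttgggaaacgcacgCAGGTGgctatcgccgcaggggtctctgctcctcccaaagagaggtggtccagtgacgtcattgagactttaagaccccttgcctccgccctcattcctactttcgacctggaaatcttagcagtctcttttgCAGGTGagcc
The first box begins at -14 relative to the gene start in Cldn4 and at -93 in Cldn6. On the opposite strand the box reads CAGGTG, and a match describes the sequence only.

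TGF-beta and BMP signalling genes were mostly lower, 15 of 28 measured (53.6%, against 12.5% of all genes). The 4 higher ones made up 14.3%, near the 13.2% of all genes. Inhba, the activin A subunit, read 6.06 and 6.42 in Fib-iPSC, against 11.28 and 11.39 in Fib (34.2-fold lower). Tgfb3, a ligand, was undetected in Fib-iPSC (4.37 and 4.62 against 8.62 and 8.8, at least 16.3-fold lower), and the receptor gene Tgfbr2 and the activin antagonist Fst were lower by 1.8 and 1.82 log2. The 4 higher genes were Nodal, Lefty1, Lefty2 and Gdf3, which also belong to the pluripotency list. Nodal, the embryonic ligand, read 8.08 and 8.35 against 4.51 and 4.27 (at least 10.7-fold), and Gdf3, a related ligand, at least 36.1-fold higher.

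Hox genes, which record position along the body axis, were lower in 13 of 25 measured members and higher in none, with a median difference of -1.45 log2. A further 13 Hox genes with a probe were detected in no line on both arrays. Hoxc9 read 4.28 and 4.4 in Fib-iPSC, undetected, against 8.23 and 8.24 in Fib (at least 11.8-fold lower). Hoxc6 read 5.87 and 5.79 against 9.54 and 9.75 (14.1-fold lower), and Hoxb2, Hoxb4 and Hoxb7 were lower as well, by at least 7.1-fold, at least 5.86-fold and 7.3-fold.

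Of 21 cyclins, CDK inhibitors and related cell cycle genes 6 were lower, 2 higher and 13 did not pass the rule. The lower share was 28.6%, against 12.5% of all genes, and the higher share 9.52%, against 13.2%. Among the inhibitors, Cdkn2a (p16 and p19Arf), a barrier to reprogramming in cultured fibroblasts, read 6.76 and 6.59 in Fib-iPSC, against 8.66 and 8.54 in Fib (3.8-fold lower). Its neighbour Cdkn2b read 7.77 and 7.84 against 9.66 and 9.54 (3.48-fold lower). Cdkn1a (p21) read 9.84 and 9.78 against 11.04 and 10.96 (2.27-fold lower), and Cdkn1c (p57) was 2.23-fold lower. The D cyclin Ccnd2 fell most, to 7.2 and 7.04 against 11.14 and 10.99, while Ccnd1 (-0.07 log2) and Ccnd3 (0.28) did not pass the rule. The E cyclin Ccne1, which drives entry into S phase, was 3.11-fold higher. E2f2, detected on 1 Fib array, was 3.29-fold higher. Among p53 targets, 4 of 18 were higher (22.2%, against 13.2% of all genes) and 3 lower (16.7%, against 12.5%). Trp53inp1 (5.35-fold) and the proapoptotic gene Bbc3 (4.33-fold) rose, as did Gadd45a (3.33-fold) and Pidd1 (2.75-fold), while Fas (2.71-fold), Ccng1 (2.48-fold) and Cdkn1a fell.

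Genes of DNA replication, mitosis and DNA repair rose, with no lower member in any of the 3 lists. Of 21 replication genes 13 were higher (median 1.42 log2), of 15 mitosis genes 9 (1.19) and of 16 repair genes 12 (1.88). The licensing factors Mcm10 (10.82 and 10.75 in Fib-iPSC, against 8.16 and 8.06 in Fib, 6.36-fold) and Cdt1 (6.06-fold) led the first list, and the helicase subunits Mcm5 and Mcm7 were 4.23-fold and 4.66-fold higher. In mitosis Top2a, a topoisomerase, was 3.46-fold, the motor gene Kif11 3.3-fold and the checkpoint kinase Bub1b 3.28-fold higher. The mismatch repair gene Msh6 read 12.18 and 12.21 against 9.3 and 9.34 (7.35-fold higher), Rad54b, of homologous recombination, 9.8 and 9.68 against 6.85 and 6.93 (7.2-fold), and Parp1 11.41 and 11.38 against 8.72 and 8.75 (6.32-fold). These differences were small beside those of the pluripotency genes, and at a 4-fold threshold 0 mitosis and 4 repair genes were called. Over 5 other scalings 7 to 13 repair genes were higher.

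Regulators of DNA methylation and chromatin gave 14 higher and 1 lower of 27. Dnmt3b, a de novo DNA methyltransferase, read 12.79 and 12.71 in Fib-iPSC, against 6.05 and 5.92 in Fib (109-fold higher), and its cofactor Dnmt3l 11.93 and 11.96 against 4.94 and 4.97 (127-fold higher). The maintenance enzyme Dnmt1 read 9.3 and 9.34 against 8.44 and 8.59, a difference of 0.81 log2 that did not pass the rule, although the arrays did not overlap. Among Polycomb genes, Cbx7 (8.6 and 8.76 against 4.22 and 4.21, at least 14.8-fold) and the PRC2 accessory gene Mtf2 (9.4-fold) were higher, and so were the core PRC2 genes Ezh2, Eed and Suz12, at 1.38, 1.48 and 1.69 log2. Bmi1, a PRC1 subunit that represses Cdkn2a, was the lower member, at 4.83 and 4.76 against 6.67 and 6.97.

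Metabolic lists moved in part. Of 20 glycolysis genes 6 were higher (30%, against 13.2% of all genes) and none lower. The neuronal-type glucose transporter Slc2a3 read 12.04 and 12.08 in Fib-iPSC, against 6.23 and 6.5 in Fib (51.8-fold higher), and Pdk1, which keeps pyruvate from mitochondria, 9.75 and 9.77 against 6.45 and 6.44 (9.96-fold). Slc2a1 (3-fold), Pfkm (3.13-fold), Aldoc (at least 5.01-fold) and Hk2 also rose, while Gapdh read 13.84 and 13.93 against 13.54 and 13.5 (0.37 log2). Of 27 respiratory chain and ATP synthase genes 1 was higher (Cox7a1, 5.12-fold) and 1 lower (Atp5o, 2.53-fold), of which Atp5o was not called without background correction. In one-carbon and amino acid metabolism 5 of 16 were higher (31.2%, against 13.2% of all genes). They were led by Gldc, the glycine decarboxylase (11.48 and 11.41 against 4.9 and 4.78), which was detected on 1 Fib array. Next came the cationic amino acid transporter Slc7a3 (14.5-fold). None of 24 proteasome genes and 1 of 20 ribosomal protein genes (Rpl22, 2.22-fold higher) passed the rule.

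Imprinted genes did not move in 1 direction as a class. Of 11 paternally expressed genes 3 were higher and 3 lower (27.3% each), and of 9 maternally expressed genes 2 and 2 (22.2% each). These shares were above the 13.2% higher and 12.5% lower over all genes. Igf2, the paternally expressed fetal growth factor, read 11.16 and 11.18 in Fib-iPSC, against 13.44 and 13.51 in Fib (4.94-fold lower). Dlk1, a Notch-related ligand of the Dlk1-Meg3 cluster, read 4.61 and 4.64, detected on 1 array, against 9.06 and 8.96, and Ndn was 6.24-fold lower. Mest (9.28 and 9.74 against 6.57 and 6.18, 8.8-fold) and Snrpn (7.72-fold) were higher. Of the maternally expressed genes, Dcn was 1 of the higher 2. Phlda2, a maternally expressed growth inhibitor of the placenta, read 9.59 and 9.57 against 4.34 and 4.33 (at least 27.6-fold higher), and the adaptor gene Grb10 8.76 and 8.79 against 11.64 and 11.56 (7.09-fold lower). The levels of several of these genes also spread widely among the pluripotent lines, from 8.97 to 13.11 for Igf2, from 4.39 to 6.64 for Dlk1 and from 6.1 to 9.01 for Grb10. H19 and Meg3 were not analysed here.

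**Figure D3:**
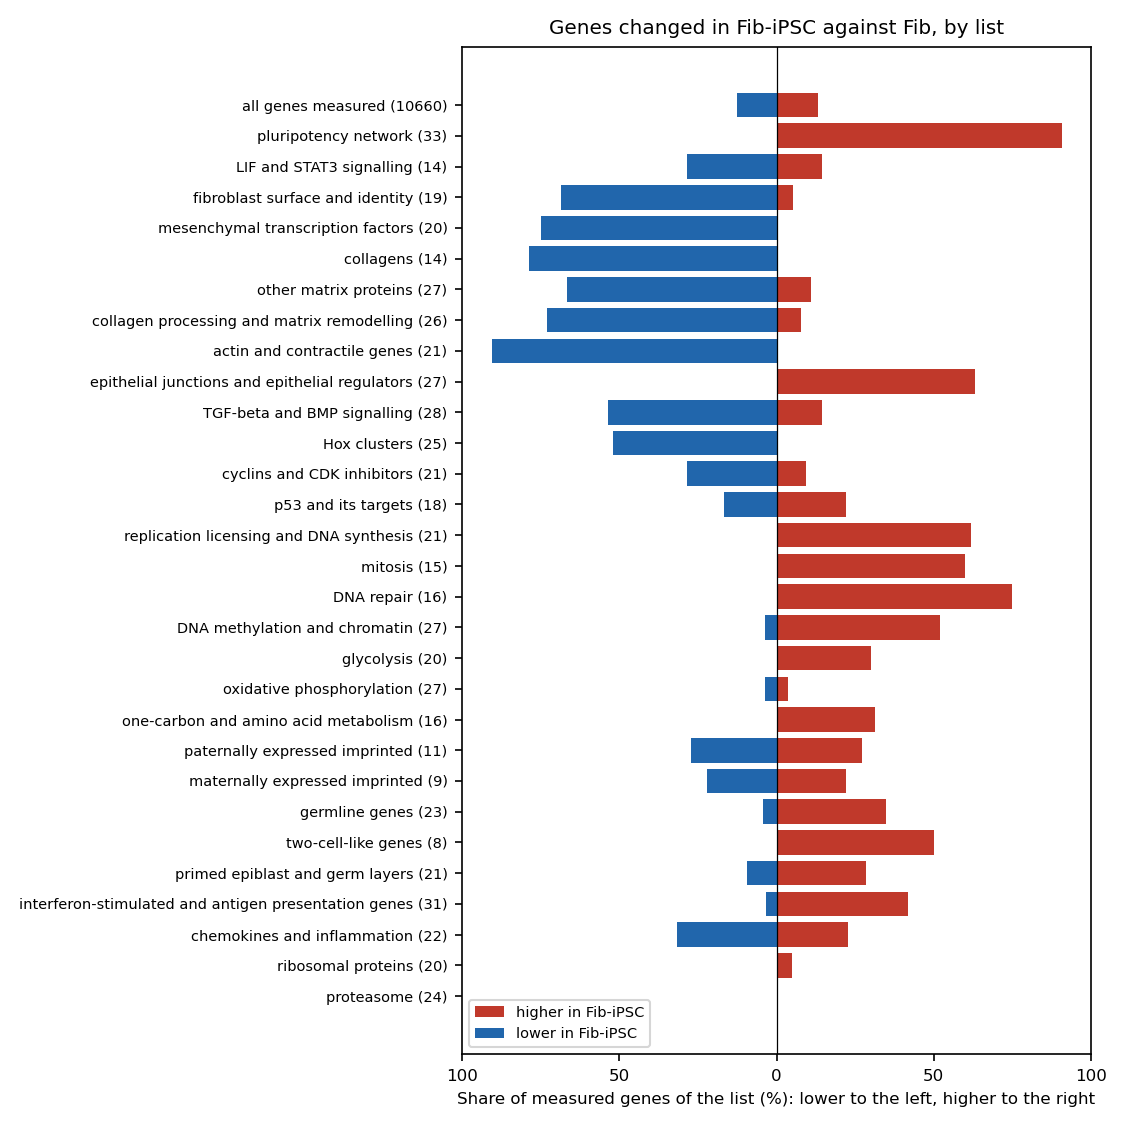
Share of the measured genes of each list (number in brackets) that were higher (red, to the right) or lower (blue, to the left) in Fib-iPSC than in Fib, with all 10660 genes in the top row. Pluripotency, DNA repair, epithelial and replication lists extend furthest to the right, and contractile, collagen and mesenchymal factor lists furthest to the left.

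Germline genes, several of which pluripotent cells share, gave 8 higher (34.8%, against 13.2% of all genes) and 1 lower (4.35%, against 12.5%) of 23. Over 5 other scalings 4 to 14 were higher, and in 3 of them none was lower. Rhox5, an X-linked homeobox gene, read 10.8 and 10.8 in Fib-iPSC, against 4.58 and 4.88 in Fib, and Tex19.1, which restrains retrotransposons, 10.36 and 10.37 against 4.67 and 4.44 (at least 47.5-fold). Tdrkh, a piRNA pathway gene, was the lower one. Genes of the two-cell state gave 4 higher of 8 (50%, against 13.2% of all genes), and 2 to 6 over the scalings. They were led by Zscan4c (8.84 and 9.05 against 4.42 and 4.34, at least 17.8-fold). Its probe, like those of Tcstv1 and Tcstv3, belongs to a family of close copies that hybridization may not keep apart. Of 21 genes of the primed epiblast and germ layers 6 were higher (5 to 10 over the scalings) and 2 lower. These shares were 28.6% and 9.52%, against 13.2% and 12.5% of all genes. The higher ones included Otx2 (9.29 and 9.36 against 4.41 and 4.28, at least 23.1-fold), Pou3f1 (at least 20.3-fold) and Fgf8 (at least 6.41-fold), while Gata6 (5.35 and 5.28 against 6.85 and 6.83) and Nes (6.3-fold) were lower.

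Interferon-stimulated genes were higher in 13 of 31 (41.9%, against 13.2% of all genes) and lower in 1 (3.23%, against 12.5%). Over 5 other scalings 9 to 22 were higher and 0 to 2 lower. Oasl2, an antiviral gene, read 9.18 and 9.32 in Fib-iPSC, against 4.75 and 5.11 in Fib (20-fold higher, with detection on 1 Fib array), and Usp18, which removes ISG15 from proteins, 8.88 and 8.94 against 5.47 and 5.65 (10.2-fold). Bst2 was 11.2-fold and Ifit3 6.5-fold higher, and the class I histocompatibility gene H2-D1 was lower. The 9 other pluripotent lines ran from 4.44 to 9.77 for Oasl2 and from 4.3 to 9.26 for Usp18. Chemokine and inflammation genes split, 5 higher (22.7%, against 13.2% of all genes) and 7 lower (31.8%, against 12.5%) of 22. Lcn2, an iron-binding acute-phase protein, read 10.24 and 10.34 against 4.34 and 4.21 (at least 45.1-fold higher), Saa3, a serum amyloid, 10.35 and 10.27 against 4.77 and 4.44 (at least 45.8-fold), and Icam1, an adhesion molecule, was 8.07-fold higher. Csf1, the macrophage growth factor (14.6-fold), and Ptgs2, of prostaglandin synthesis (4.47 and 4.69, detected on 1 array, against 8 and 8.14), were lower, and in 1 of 5 other scalings the list's counts were level.

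Markers of other cell types were in part detected, and their summed levels are given as descriptions. Of 12 macrophage markers with a probe, 9 were undetected on both Fib-iPSC arrays and 7 on both Fib arrays, among them Ptprc (CD45) in both lines. Lyz2 and Adgre1 were detected in Fib and not in Fib-iPSC, and Laptm5 was 23.9-fold higher in Fib-iPSC. The summed linear level of the 5 measured ones was 2110 and 2020 in Fib-iPSC, against 374 and 406 in Fib. Laptm5, which stood at 10.58 to 11.55 log2 in all 9 other pluripotent lines, made up most of it, and without it the sum was 94.9 and 97 in Fib-iPSC, against 292 and 322 in Fib. For endothelial markers the sum over 9 measured genes was 1390 and 1330, against 637 and 616. Of the 9, 5 were higher (55.6%, against 13.2% of all genes), Pecam1 and Tek among them. Flt1 and Emcn were the 2 lower ones (22.2%, against 12.5%). Without background correction 1 was higher and 1 lower, and Pecam1 and Tek differed by 0.87 and 0.88 log2. The 9 other pluripotent lines ran from 6.14 to 8.04 log2 for Pecam1 and from 5.15 to 6.8 for Tek. Cdh5 was undetected in both Fib-iPSC and Fib. Keratinocyte markers summed to 264 and 253 against 108 and 104, with Krt5 undetected in both, and Krt17 (at least 3.05-fold) and Sfn (at least 3.81-fold) were higher. Krt17 stood at 5.22 to 7.17 log2 and Sfn at 5.65 to 7.45 in the 9 other pluripotent lines. Adipocyte markers summed to 265 and 237 against 342 and 292, with Adipoq undetected in both, and Pparg was at least 4.96-fold lower. Skeletal muscle markers summed to 1200 and 1190 against 1120 and 1170, with Myod1 undetected in both lines, but 3 of the 5 measured changed in opposite directions. Mylpf (24.5-fold) and Tnnt1 (9.09-fold), both detected on 1 Fib array, were higher, and Acta1, skeletal actin, was 8.89-fold lower. In the 9 other pluripotent lines Mylpf stood at 8.58 to 9.89 log2 and Tnnt1 at 7.45 to 8.74, so neither was particular to Fib-iPSC. Cartilage and bone markers summed to 510 and 506 against 326 and 293, of which Alpl, also the alkaline phosphatase of pluripotent cells, was at least 13-fold higher, while Sp7 (at least 2.88-fold) and Sox9 (at least 1.91-fold) were lower. The part of other cells in the differences above was not tested.

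To ask how far Fib-iPSC left the fibroblast state, the genes that set Fib apart from the 9 other pluripotent lines were taken. Both Fib arrays lay at least 2-fold above all 18 arrays of those lines in 661 genes (6.2%) and at least 2-fold below in 568 (5.33%). Of the 661 fibroblast genes, Fib-iPSC kept none at least 2-fold above those arrays, and of the 568 pluripotent genes it was at least 2-fold short of them in none. The Fib-iPSC mean was within the range of the 9 line means for 594 of the 661 genes, above it for 29 and below it for 38. For the 568 genes it was within the range for 526, above it for 33 and below it for 9. On a scale from the median of the 9 lines (0%) to Fib (100%), the median fibroblast gene of Fib-iPSC stood at 1.98% and the highest at 46.6%. Each of the 9 lines was then put in the place of Fib-iPSC, with both sets drawn anew against Fib-iPSC and the other 8. Both counts were 0 in iPSC 1, iPSC 2, iPSC 4, gPSC 2, gPSC 3 and gPSC 4. Line gPSC 4 had Fib-iPSC in its reference and differed from it in 9 genes by the rule. Only those genes could have counted, so its 0 is no separate benchmark. ESC kept 6 of 675 genes and was short in 1 of 578, and iPSC 3 kept 3 of 703 and was short in 10 of 614. Line gPSC 1 kept 121 of 844 and was short in 9 of 702. These sets and the comparison with Fib share the Fib arrays.

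**Figure D4:**
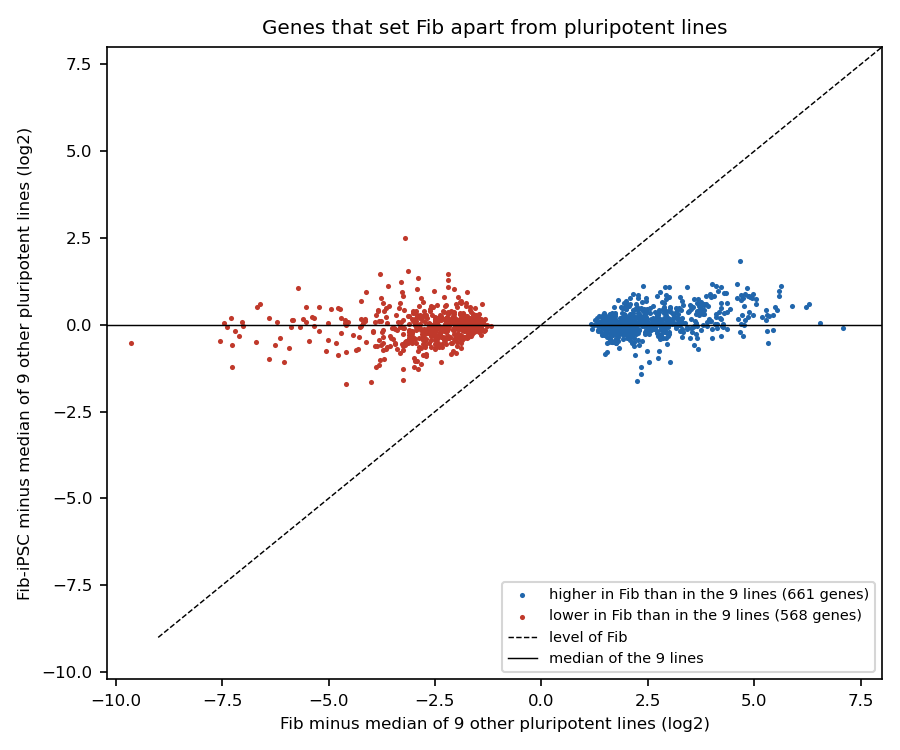
Difference to the median of the 9 other pluripotent lines (log2) in Fib-iPSC (vertical axis) and in Fib (horizontal axis), for the 661 genes higher in Fib (blue) and the 568 genes lower in Fib (red) than in all those lines. The points lie along the horizontal line at 0, the median of the 9 lines, and away from the dashed line, the level of Fib.

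The count of 0 rested on the lines it was set against. Line gPSC 1 itself kept 121 of the 844 genes drawn for it, and gPSC 4 differed from Fib-iPSC in 9. Leaving out either of them kept the count at 0, but leaving out both, an alternative chosen after the data were seen, gave 8 kept genes of 928 and 1 short gene, Stag3, of 775. The 8 were Aqp1, Ccl2, Ccl7, Fst, Scara3, Tgfbr2, Thbd and Tmem176b, named after their values were seen. Tgfbr2, the type II TGF-beta receptor, read 8.05 on average in Fib-iPSC and 9.85 in Fib, with 9.85 in gPSC 1, 8.39 in gPSC 4 and 5.53 to 6.71 in the other 7 lines. The chemokine Ccl2 read 7.26 in Fib-iPSC and 7.41 in Fib, with 10.02 in gPSC 1, 7.48 in gPSC 4 and 4.31 to 5.69 in the others. In each of the 8 genes gPSC 4 had a mean at or above that of Fib-iPSC.

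Against the same 7 lines Fib-iPSC was at least 2-fold higher in 21 genes and lower in 4. Of the 21, 11 were also higher than in Fib by the rule and 5 lower. The 11 were Dcn, Lum, Mmp3, Mmp13, Saa3, Cxcl1, Il33, Fgf5, Fgf8, Cyp2f2 and Ppp4r4, named after their values were seen. Fgf5 and Fgf8 are growth factor genes of the epiblast, and Fgf5 averaged 7.2 in Fib-iPSC and 4.92 in Fib, with 7.52 in gPSC 4 and 6.11 in gPSC 1. Dcn averaged 9.89 in Fib-iPSC and 7.3 in Fib, with 10.06 in gPSC 4, 11.68 in gPSC 1 and 5.5 to 8.71 in the other 7 lines. Mmp3 averaged 10.87 in Fib-iPSC and 6.83 in Fib, with 11.1 in gPSC 4, 12.58 in gPSC 1 and 5.14 to 9.64 in the others. Il33, an alarmin cytokine, averaged 8.28 in Fib-iPSC and 4.64 in Fib, with 8.62 in gPSC 4 and 9.35 in gPSC 1. By label, neither gPSC 1 nor gPSC 4 has a fibroblast source. Col1a1, in contrast, was 7.06 in Fib-iPSC, inside the range of the 9 lines and far from the 12.23 of Fib.

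**Figure D5:**
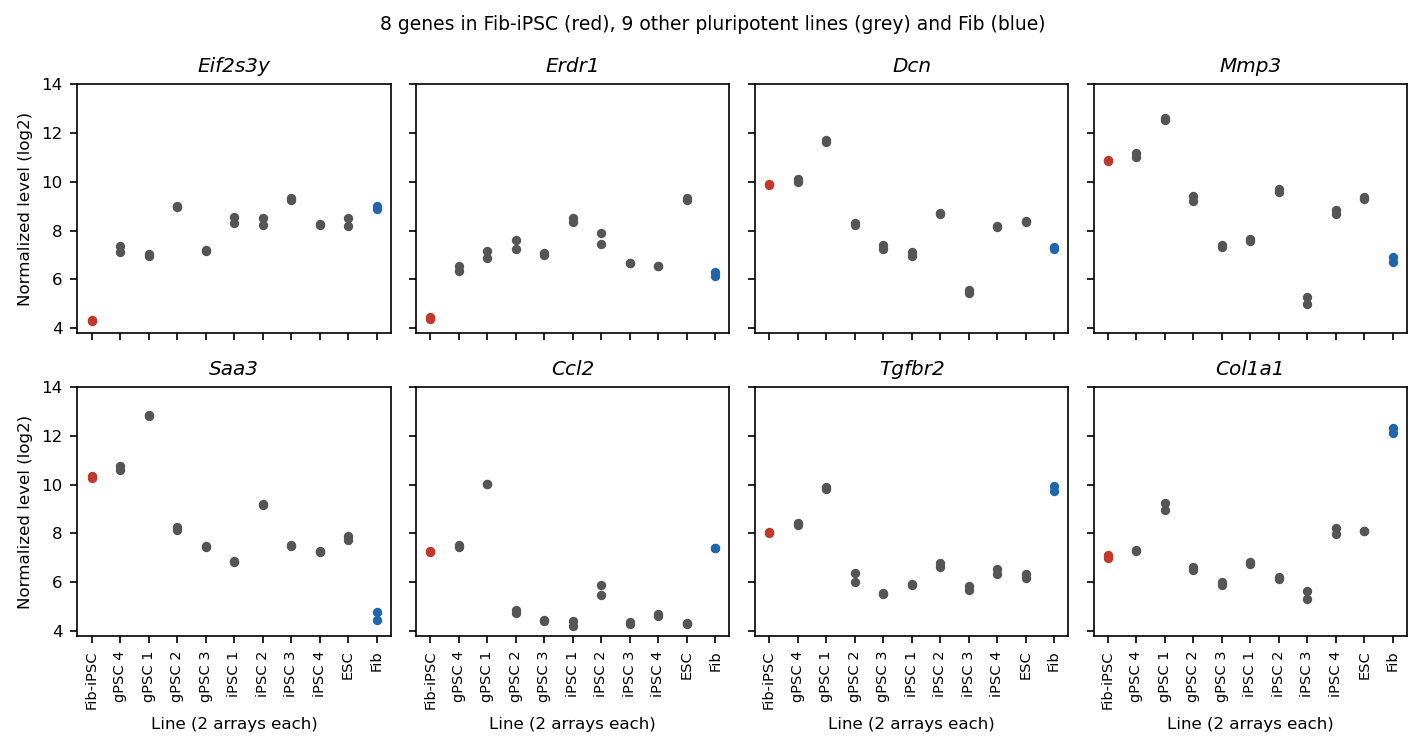
Normalized level (log2) of 8 genes on the 2 arrays of Fib-iPSC (red), each of the 9 other pluripotent lines (grey) and Fib (blue). Eif2s3y and Erdr1 are lowest in Fib-iPSC, Dcn, Mmp3 and Saa3 are highest in gPSC 1 with gPSC 4 and Fib-iPSC next, and Col1a1 is highest in Fib.

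The step from fibroblast to Fib-iPSC was set beside the step from GSC to their iPSC lines, which shares no sample with it. By the same rule on all arrays (8 iPSC arrays against 4 GSC arrays), 625 genes (5.86%) were higher and 570 (5.35%) lower in iPSC than in GSC. Higher in both were 286 genes, 20.4% of the genes higher in Fib-iPSC and 45.8% of those higher in iPSC. Lower in both were 120, 9% and 21.1% of the lists. The pluripotency list gave 30 higher of 33 from Fib and 21 from GSC, and epithelial genes 17 and 9 of 27. Collagens were lower in 11 of 14 from Fib and in none from GSC, and replication genes higher in 13 of 21 from Fib and in 1 from GSC. With 8 arrays against 4 the rule is harder to pass than with 2 against 2, so these counts are not on a like footing. Median differences from Fib and from GSC were 5.08 and 3.29 log2 for pluripotency genes and 1.53 and 1.43 for epithelial genes. They were -3.24 and 0.08 for collagens and 1.42 and 0.27 for replication genes. Opposite calls were made for 112 genes, 56 in each direction. Of the 625 genes higher in iPSC, 56 were lower in Fib-iPSC, beside 12.5% lower over all genes. Of the 570 lower in iPSC, 56 were higher in Fib-iPSC, beside 13.2% over all genes, so opposite calls did not exceed these shares. Cdkn1a, for example, was lower in Fib-iPSC than in Fib by 1.19 log2, and in the germline comparison it averaged 10 in iPSC and 7.77 in GSC. The lists' differences between the steps were not tested.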

How the data were processed

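Total RNA of 13 mouse lines, amplified to biotinylated cRNA, was hybridized to Illumina BeadChips on 2 technical arrays per line. Per the submitters' processing notes, BeadStudio 3.2 and lumi were used, without a role for each. The deposited table holds an intensity for each of 25697 probes, neither normalized nor background-subtracted as far as its values show, and beside it a deposited detection p-value, whose steps imply 798 negative controls. A second deposited table, of log2 values the authors had processed, served as an alternative.

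Intensities of all 26 arrays were background-corrected, quantile normalized and log2 transformed with neqc (limma 3.58.1, R 4.3.3, offset 16). The detection filter (p under 0.05 on the 2 arrays of any line) left 15917 probes, and 0 columns of other samples were present. Of all probes, 23978 name 1 gene and 1719 none, and 23962 match RefSeq genes of GRCm38.p6, used for names and promoters. The probe with the highest mean stood for its gene. Among changed genes, 1146 further detected probes existed. Of these, 1106 had the same sign, 657 the same call and 5 the opposite call (in Actb, Ifngr2 and Mpv17l). Bounds use the lowest detected signal of each array of the lower line. No test was made, since each side is 1 line, and the number of arrays limits the precision. The script that applies the rule of change was tested on simulated data, which measures no error rate of the rule between cultures. Members, gene lists and alternatives were chosen with earlier results of these data known. Named genes were the 10 widest gaps in each direction, the 5 widest of each list, members against their list, and a fixed set of 20 genes (of which Epcam, Snai2, Trp53, H19 and Meg3 were not analysed here). Genes named in addition were chosen after their values were seen. Alternatives covered normalization, offset, detection filter, probe choice, fold, and leaving out each array.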

Additional observations from a re-analysis of the deposited data

Results flagged for a closer look

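Several named genes moved in opposite directions in the step from Fib to Fib-iPSC and the step from GSC to iPSC, with every array of 1 side at least 2-fold beyond every array of the other in each, and the difference between the steps was not tested. They belong to the 112 genes with opposite calls, a number that did not exceed the shares over all genes. Acta2, smooth muscle actin, differed by -5.87 log2 in Fib-iPSC against Fib, and averaged 8.51 in iPSC and 6.12 in GSC. The p53 targets Cdkn1a (-1.19) and Ccng1 (-1.31) were likewise lower in Fib-iPSC than in Fib, and averaged 10 and 10.44 in iPSC, against 7.77 and 8.28 in GSC. Gata6, a factor of primitive endoderm, differed by -1.52 log2 in Fib-iPSC against Fib, and averaged 7.31 in iPSC and 4.36 in GSC. On the other side, Oasl2 (4.32 log2), Taf7l (2.22) and Tuba3a (3.29) were higher in Fib-iPSC than in Fib, and lower in iPSC (6.52, 6.88 and 8.37) than in GSC (10.4, 11.85 and 12.61). Taf7l was undetected on both Fib arrays, so its rise was at least 3.22-fold. The Tuba3a probe read 4.23 and 4.26 in Fib, below the lowest detected signals of those arrays (4.78 and 4.81). Taf7l and Tuba3a are genes of male germ cells.

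Probes without a gene name, left out of all comparisons, changed at a share near that of the named genes: of 969 such probes that passed the detection filter, 219 passed the rule, 110 higher and 109 lower in Fib-iPSC (22.6%), against 25.7% of the measured genes.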

How the results depend on the processing

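No called gene among the 175 named and changed genes reversed its sign under any alternative. For all 178 named genes together, the move was within the spread between arrays in 2046 of 2847 gene values. Quantile normalization without background correction gave 1387 changed genes (658 higher, 729 lower) and sets of 339 fibroblast and 238 pluripotent genes. The median shift gave 2335 higher genes, 64.2% of its changed genes, and 1383 pluripotent genes. The authors' processed values gave 907 pluripotent genes and an offset of 50 gave 360. At 4-fold, 868 genes were changed (416 higher, 452 lower), with 156 fibroblast and 174 pluripotent genes. Counts of changed genes for other settings ran up to 3793, with the authors' values. Leaving out 1 of the 4 arrays gave 2973 to 3015. Counting only genes detected on both arrays of the higher line, an alternative added after seeing the data, gave 2737. The count of kept fibroblast genes was 0 under all settings run except without both gPSC 1 and gPSC 4, where it was 8, with 1 pluripotent gene short. Normalization of the 4 arrays alone, the difference of means and the stricter detection setting gave no count of kept genes. No paired analysis was possible because the letters a and b mark technical arrays and no test was made. Before normalization the a arrays had higher medians than the b arrays in Fib-iPSC (102.6 and 93.96) and in the GSC, gPSC and ESC lines. In Fib (134.4 and 143.2) and the iPSC lines from GSC they had lower medians. Technical arrays of 1 line a side measure no spread between cultures, and the greater brightness of the Fib arrays and the cell type cannot be told apart. Genes near the floor have only bounds.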
